A study of Mus musculus with 8 samples.

Results

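The lysosome and autophagy genes examined here are 31 mouse genes taken by symbol from a list, of 20659 genes with a named probe on the arrays. The list was chosen with earlier results of these data known. The 31 genes are 15 lysosomal hydrolases and their lumenal partners, 4 lysosomal membrane proteins, 2 transcription factors and 10 genes of the autophagy machinery. They were covered by 38 of the 39429 probes, and all 31 were well above background on all 8 arrays, so every one was tested.

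RNA came from primary cultures of kidney proximal tubule cells, which take back most of what the glomerulus filters, from male C57/BJ mice aged 6 weeks. Cortex was digested to tubules, and cells were grown to confluence. In medium without serum, cells for 4 samples received 1 μM GW4064 in DMSO and cells for 4 samples received DMSO alone, each for 24 h. The compound GW4064 activates FXR, a bile acid receptor of the nuclear receptor family whose gene is Nr1h4. The labels describe the tubule pellet as mostly tubules and do not state that replicates were separate cultures or mice. The p-values therefore cover the variation among these 8 samples alone, which may be technical.

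Lysosomes break down material taken up by endocytosis or delivered by autophagy, using acid hydrolases that work inside a membrane of highly glycosylated proteins. TFEB and TFE3 are related transcription factors that move to the nucleus when the kinase complex mTORC1 is inactive and bind E-box sequences at lysosomal and autophagy genes. Proximal tubule cells reabsorb filtered proteins and degrade them in lysosomes. In mouse liver, activated FXR is known to lower the expression of autophagy genes.

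The arrays lay on 2 slides, each with 2 GW4064 and 2 DMSO samples, and the GW4064 samples took the last 2 places on each slide, so place and treatment cannot be told apart. The 75th percentile of spot signal was 1412 ± 207 with GW4064 and 1626 ± 187 with DMSO (SD, n = 4 each). The known FXR targets Slc51a and Slc51b had log2 fold changes of 6.91 ± 0.16 and 3.40 ± 0.07 (SE), Fabp6 was well above background on 4 of 4 GW4064 and 0 of 4 DMSO arrays, and Nr1h4 fell by 0.45 ± 0.05 on the log2 scale. Of 18 proximal tubule markers 17 were tested, and 12 were higher and 2 lower with GW4064 (82.4% called, against 20.8% of all genes tested). The sulfate transporter Slc13a1, the marker with the smallest p, had a log2 fold change of 2.52 ± 0.07.

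A minority of the 31 genes were called between GW4064 and DMSO, and these changed by at most 1.56-fold. Genes that did not pass are not thereby shown to be unchanged. In limma, 11 of 31 (35.5%) passed an adjusted p of 0.05, against 20.8% of all 14487 genes tested. In a fit limited to the 13840 genes well above background on every array, 12 of the 31 passed, against 21.8% of those genes. Of these 11, 8 rose (25.8% of the 31, against 11.8% of all genes) and 3 fell (9.68%, against 8.95%). With normexp background correction and quantile normalization together the split was 6 higher and 4 lower, and with quantile normalization alone it was 7 and 3. Over all 14487 genes these settings called 2536 and 3011. Of all genes called, 52.7% and 51.1% were higher in these settings, against 56.9% as reported. The sialidase Neu1 rose 1.56-fold and the protease Ctsd 1.43-fold, and the other 9 of the 11 called genes changed by at most 1.18-fold. The median log2 fold change of the 31 genes was 0.06, against 0.01 over all genes tested, and 21 of the 31 values were above 0 (54.2% of all genes). As the list was chosen with earlier results of these data known, these comparisons with all genes are description only.

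**Figure D1:**
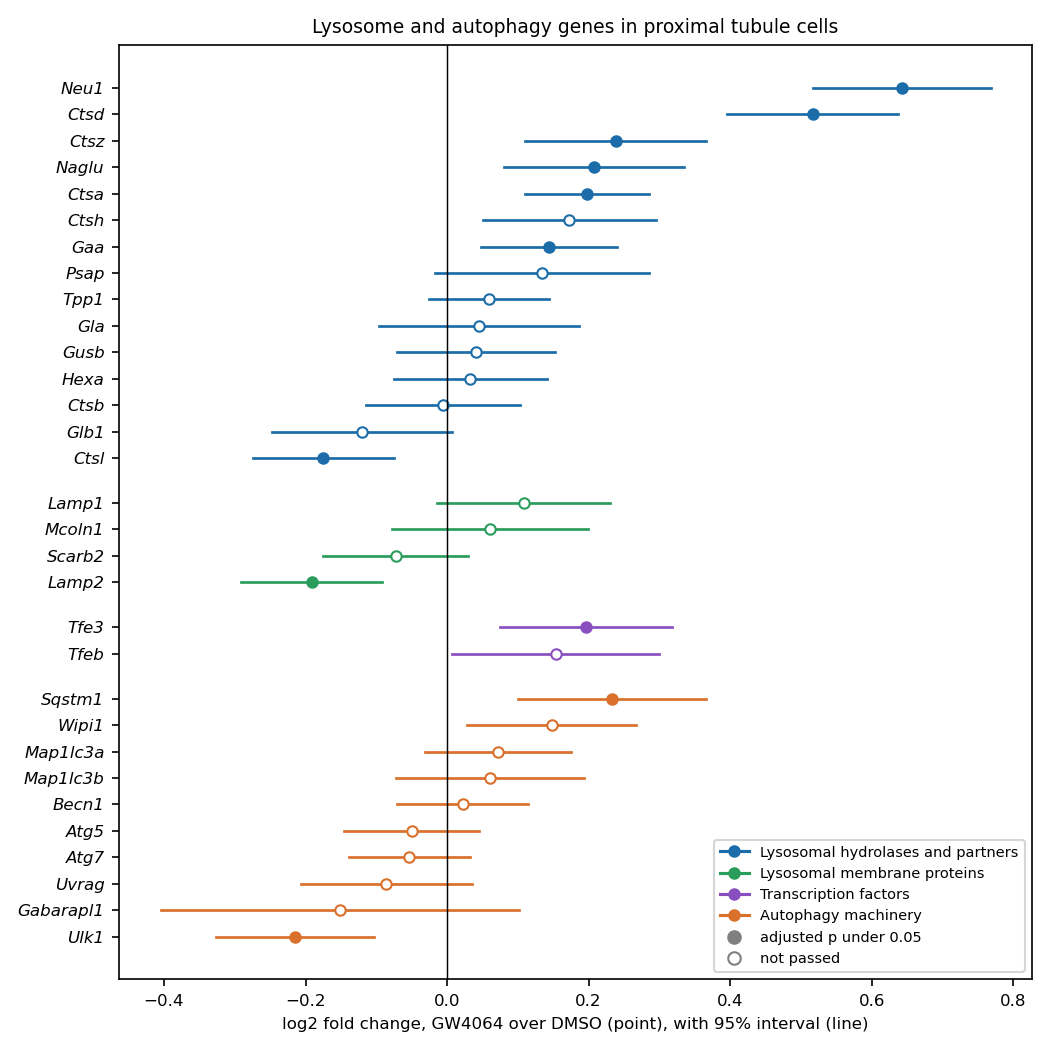
Log2 fold change of GW4064 over DMSO for each of the 31 genes (points) with its 95% interval from limma (lines), grouped by role. Neu1 (0.64) and Ctsd (0.52) stand above the others, filled points mark the 11 genes past the threshold, and most intervals of the autophagy genes include 0.

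Among the 15 hydrolases and partners, 6 rose, 1 fell and 8 did not pass. So 46.7% of this class was called, against 20.8% of all genes tested, and 40% was higher, against 11.8%. The median log2 fold change of the 15 genes was 0.13, and 12 of the 15 values were above 0. For 37 other lysosomal hydrolases and activators the median was 0.05, with 32.4% called. Levels are on the log2 scale relative to each array's 75th percentile, and they can be compared between arrays for 1 gene but not between genes.

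Neu1, the lysosomal sialidase that removes sialic acid from glycoproteins and glycolipids, read 6.02, 5.94, 5.87 and 6.06 on the 4 GW4064 arrays, against 5.40, 5.37, 5.24 and 5.31 on the 4 DMSO arrays. Every GW4064 array lay above every DMSO array. The log2 fold change was 0.64 ± 0.05 (SE, n = 4 per group, adjusted p = 0.00013), higher than 97.7% of the values of all genes tested.

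Ctsd, cathepsin D, the main aspartic protease of lysosomes, read 7.06, 7.20, 7.08 and 7.12 with GW4064, against 6.71, 6.59, 6.60 and 6.50 with DMSO. The groups did not overlap, and the log2 fold change was 0.52 ± 0.05 (adjusted p = 0.000332). Its other, dimmer probe gave a log2 fold change of 0.33 ± 0.08, in the same direction and smaller.

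The upstream sequences of both genes are shown because they had the largest rises and differ in the E-box that TFEB and TFE3 bind. They are the 250 bases before the RefSeq start, from the GRCm38.p6 table, 5′ to 3′ on the gene's strand. Capitals mark CACGTG or its extension TCACGTGA. Neu1 lies at chr17:34931003-34931252 (plus strand), with neither motif, and Ctsd at chr7:142387828-142388077 (minus strand), with 2 E-boxes.
Neu1: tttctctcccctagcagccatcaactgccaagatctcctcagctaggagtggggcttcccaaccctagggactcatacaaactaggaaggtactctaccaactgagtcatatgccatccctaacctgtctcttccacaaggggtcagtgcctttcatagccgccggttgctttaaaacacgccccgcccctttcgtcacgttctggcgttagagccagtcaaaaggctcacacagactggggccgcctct
Ctsd: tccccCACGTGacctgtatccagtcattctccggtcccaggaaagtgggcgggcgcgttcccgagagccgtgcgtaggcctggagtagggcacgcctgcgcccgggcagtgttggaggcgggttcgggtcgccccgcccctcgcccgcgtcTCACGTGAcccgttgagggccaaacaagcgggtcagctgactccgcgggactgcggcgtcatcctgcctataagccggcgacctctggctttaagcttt

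Ctsa, the protective carboxypeptidase that holds Neu1 and the beta-galactosidase Glb1 in 1 complex, read 6.07, 5.99, 6.06 and 6.09 with GW4064, against 5.83, 5.90, 5.87 and 5.82 with DMSO. Its groups did not overlap either (log2 fold change 0.20 ± 0.04, adjusted p = 0.00867). Glb1, the remaining subunit of that complex, read 2.85, 2.81, 2.71 and 2.81 with GW4064, against 2.996, 2.87, 2.81 and 2.99 with DMSO. These groups overlapped, and the log2 fold change of -0.12 (95% interval -0.25 to 0.01) did not pass, so 2 of the 3 genes of the complex were called.

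Ctsz, cathepsin Z, a cysteine carboxypeptidase, read 4.66, 4.59, 4.48 and 4.67 with GW4064, against 4.40, 4.43, 4.28 and 4.33 with DMSO. The log2 fold change was 0.24 ± 0.06 (adjusted p = 0.0192), and with normexp and quantile normalization together it was 0.15 and did not pass (adjusted p = 0.0788). Naglu, which removes N-acetylglucosamine from heparan sulfate, read 1.91, 1.91, 1.69 and 1.82 with GW4064, against 1.59, 1.59, 1.68 and 1.65 with DMSO. GW4064 replicate 3 sat just above the highest DMSO array, and the log2 fold change was 0.21 ± 0.06 (adjusted p = 0.0313).

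Gaa, the acid alpha-glucosidase that degrades glycogen in lysosomes, read 3.84, 3.78, 3.78 and 3.70 with GW4064, against 3.62, 3.60, 3.69 and 3.62 with DMSO. The log2 fold change was 0.14 ± 0.04, with an adjusted p of 0.0434 close to the threshold, and its other probe gave 0.10 ± 0.06. Ctsl, cathepsin L, a cysteine endopeptidase, was the 1 hydrolase that fell. It read 6.26, 6.26, 6.36 and 6.34 with GW4064, against 6.51, 6.44, 6.53 and 6.43 with DMSO, without overlap (log2 fold change -0.18 ± 0.04, adjusted p = 0.0241).

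Ctsh, cathepsin H, an aminopeptidase, read 3.87, 3.83, 3.80 and 3.86 with GW4064, against 3.76, 3.68, 3.53 and 3.70 with DMSO. The groups did not overlap, yet the log2 fold change of 0.17 ± 0.05 did not pass (adjusted p = 0.0537). Psap, the precursor of the saposins that help hydrolases act on sphingolipids, had a log2 fold change of 0.13 (95% interval -0.02 to 0.29) and did not pass. For the protease gene Ctsb the log2 fold change was -0.01 (95% interval -0.11 to 0.10). The remaining genes of the class, Tpp1, Gla, Gusb and Hexa, had log2 fold changes of 0.03 to 0.06, and their intervals reached no further than -0.10 and 0.19. Tpp1 encodes a tripeptidyl peptidase, Gla alpha-galactosidase A, Gusb beta-glucuronidase and Hexa a subunit of beta-hexosaminidase.

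**Figure D2:**
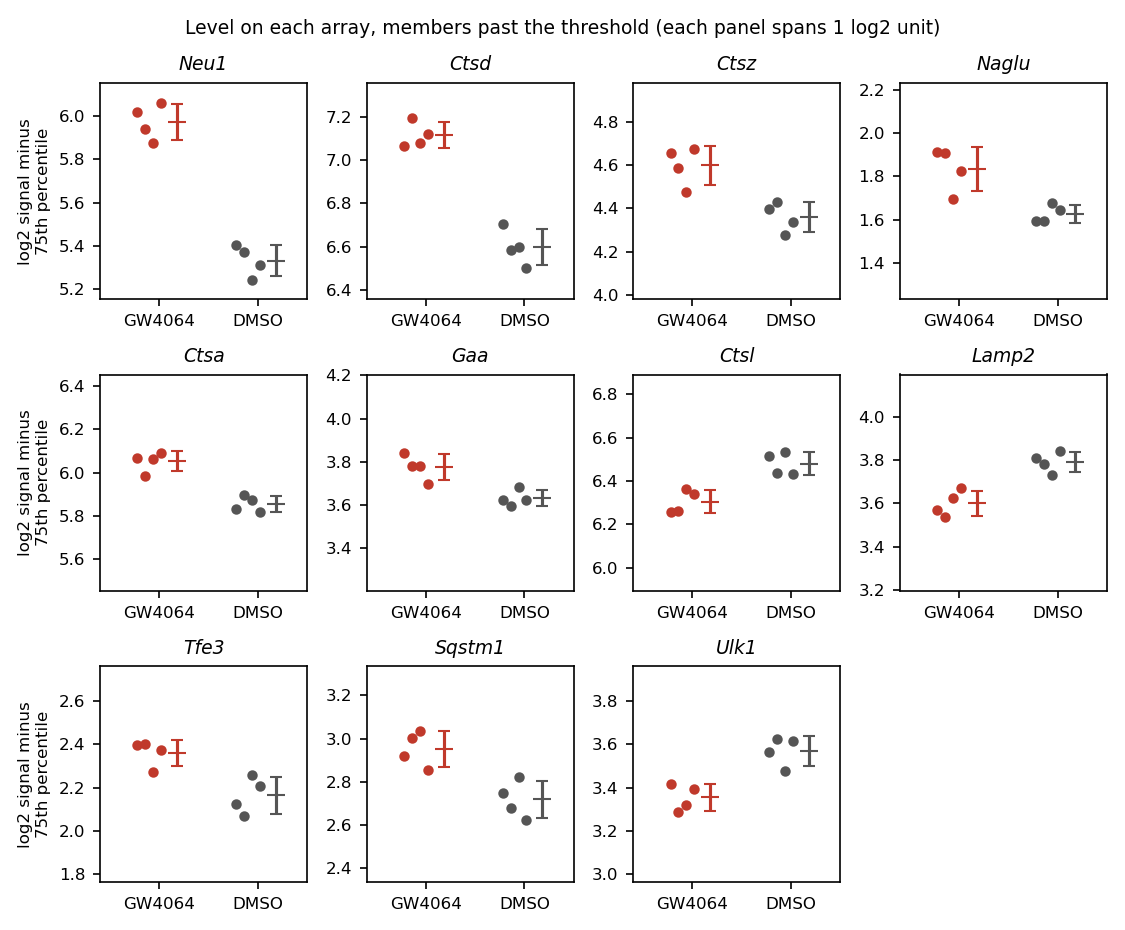
Level of the 11 genes past the threshold on each array, as log2 signal minus the array's 75th percentile, with GW4064 left and DMSO right in each panel. Points are arrays, the bar beside them is the mean with its SD (n = 4), every panel spans 1 log2 unit, and no group overlaps the other in any panel.

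Of the 4 lysosomal membrane proteins, 1 fell, 0 rose and 3 did not pass (25% called, against 20.8% of all genes tested). Lamp2, a main glycoprotein of the lysosomal membrane that also serves in chaperone-mediated autophagy, read 3.57, 3.54, 3.63 and 3.67 with GW4064, against 3.81, 3.78, 3.73 and 3.84 with DMSO. The groups did not overlap (log2 fold change -0.19 ± 0.04, adjusted p = 0.0168), and its second probe gave -0.18 ± 0.06. Lamp1, the related membrane glycoprotein, read 6.63, 6.72, 6.65 and 6.80 with GW4064, against 6.66, 6.62, 6.60 and 6.49 with DMSO. Its groups overlapped, and its log2 fold change of 0.11 (95% interval -0.01 to 0.23) did not pass. Mcoln1, the calcium release channel of lysosomes, had 0.06 (-0.08 to 0.20), and Scarb2, the carrier of glucocerebrosidase to lysosomes, had -0.07 (-0.17 to 0.03).

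The transcription factor Tfe3 read 2.40, 2.40, 2.27 and 2.37 with GW4064, against 2.12, 2.07, 2.26 and 2.21 with DMSO. GW4064 replicate 3 and DMSO replicate 3 nearly met, and the log2 fold change was 0.20 ± 0.05 (adjusted p = 0.0335), with 0.10 ± 0.04 for its other probe. Tfeb read -1.15, -1.25, -1.42 and -1.20 with GW4064, against -1.32, -1.40, -1.45 and -1.46 with DMSO. Its groups overlapped through GW4064 replicate 3, and the log2 fold change of 0.15 (95% interval 0.01 to 0.30) did not pass (adjusted p = 0.129). Without GW4064 replicate 3 it was 0.21 and passed (adjusted p = 0.0308).

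Of the 10 genes of the autophagy machinery 1 rose, 1 fell and 8 did not pass, and the median log2 fold change was -0.01. The share called was 20%, close to the 20.8% of all genes tested. Whether the share called differed from that of the hydrolases was not tested.

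Sqstm1, the p62 receptor that binds ubiquitinated cargo and is also a target of the antioxidant factor NRF2, read 2.92, 3.001, 3.03 and 2.85 with GW4064, against 2.75, 2.68, 2.82 and 2.63 with DMSO. The groups did not overlap, and the log2 fold change was 0.23 ± 0.06 (adjusted p = 0.0243). Ulk1, the kinase that starts autophagosome formation, read 3.42, 3.29, 3.32 and 3.40 with GW4064, against 3.56, 3.62, 3.48 and 3.61 with DMSO. All GW4064 arrays were lower, with a log2 fold change of -0.21 ± 0.05 (adjusted p = 0.017).

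Wipi1, which binds phosphoinositides on the growing membrane, read 0.52, 0.60, 0.63 and 0.75 with GW4064, against 0.47, 0.51, 0.46 and 0.47 with DMSO. The groups did not overlap, but the log2 fold change of 0.15 ± 0.05 did not pass (adjusted p = 0.0814), and its other probe gave 0.08 ± 0.08. It passed without GW4064 replicate 1 (0.18, adjusted p = 0.0474) and with normexp and quantile normalization together (0.17, adjusted p = 0.0462).

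Gabarapl1, an ATG8 family protein that is joined to autophagosome membranes, had the largest standard error of the 31 genes. It read 5.90, 5.84, 5.85 and 6.34 with GW4064, against 6.22, 6.18, 6.07 and 6.07 with DMSO. Of the GW4064 arrays 3 were below every DMSO array and replicate 4 was above them all. The log2 fold change over all arrays was -0.15 (95% interval -0.40 to 0.10) and did not pass, and without GW4064 replicate 4 it was -0.27 and passed (adjusted p = 0.0117). It also passed over all 8 arrays with normexp and quantile normalization together (-0.29, adjusted p = 0.0162).

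The other ATG8 genes, Map1lc3a and Map1lc3b, had log2 fold changes of 0.07 (95% interval -0.03 to 0.18) and 0.06 (-0.07 to 0.19). Becn1, a subunit of the lipid kinase complex that nucleates autophagosomes, had 0.02 (-0.07 to 0.11), and its partner Uvrag had -0.09 (-0.21 to 0.04). Atg5 and Atg7, which work in the conjugation of ATG8 proteins to lipid, had -0.05 (-0.15 to 0.05) and -0.05 (-0.14 to 0.03). None of these 6 passed, and their intervals lay between -0.21 and 0.19. Fewer expressing cells and less RNA per cell cannot be told apart in these bulk samples.

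Of the 31 genes 13 had groups that did not overlap, 10 higher and 3 lower (26.1% of all genes did not overlap, 15% higher and 11.2% lower). They were the 11 called genes, Ctsh and Wipi1. In 7 genes that had 2 probes (Ctsa, Ctsd, Gaa, Lamp2, Tfe3, Atg7 and Wipi1), both probes went the same way in all 7. In a fit over all 24735 kept probes (15.4% called), the brightest probe of 10 of the 11 called genes passed, and that of Gaa did not (adjusted p = 0.0599). The dimmer probe of Ctsd passed, and those of Ctsa, Lamp2, Tfe3 and Gaa did not (adjusted p = 0.0729, 0.0644, 0.15 and 0.346).

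Within each slide, which held 2 arrays of each group, all 11 called genes kept their direction. The groups of all 11 did not overlap, so a split by slide could not reverse that direction. The shared direction is therefore not a replication, and only the sizes on each slide are informative. On slide 1 and slide 2 the log2 fold changes were 0.59 and 0.69 for Neu1, 0.48 and 0.55 for Ctsd, 0.16 and 0.23 for Ctsa, 0.21 and 0.27 for Ctsz, and 0.25 and 0.22 for Sqstm1. They were -0.24 and -0.19 for Ulk1, -0.22 and -0.13 for Ctsl and -0.24 and -0.14 for Lamp2. The rises of Naglu (0.32 and 0.10), Tfe3 (0.30 and 0.09) and Gaa (0.20 and 0.08) were smaller on slide 2. Tested on slide 1 alone, Neu1 and Naglu passed, and on slide 2 alone 0 of the 31 did in limma, where 5 had an unadjusted p under 0.05 and 220 of 14487 genes passed.

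**Figure D3:**
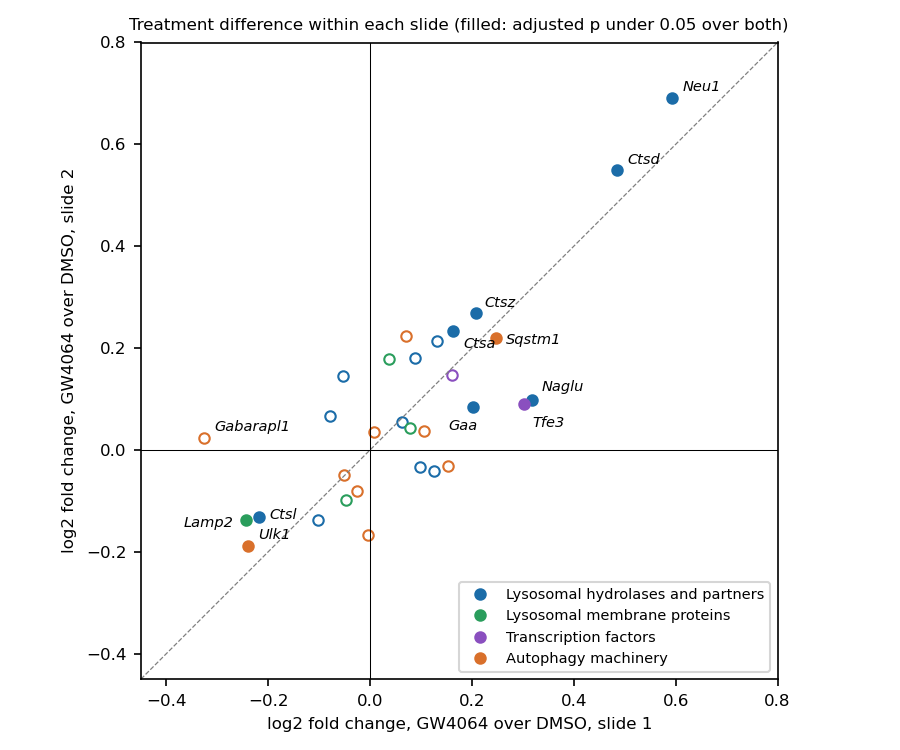
Log2 fold change of GW4064 over DMSO on slide 1 (x axis) and slide 2 (y axis) for the 31 genes, coloured by role, from 2 arrays of each group per slide. Filled points passed the threshold over all 8 arrays, the dashed line marks equal values, and Neu1 and Ctsd are high on both slides. Gabarapl1 is -0.33 on slide 1 and 0.02 on slide 2, which held GW4064 replicate 4, the highest array for this gene.

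Several of the smaller calls were lost when 1 array was left out. Each of these fits has fewer arrays and called 2078 to 2825 of all genes, against 3008 as reported. Whether the array left out or the smaller number of arrays ended a call was not tested. Neu1, Ctsd and Ctsa passed whichever array was left out. Ctsz was lost without DMSO replicate 4 (0.23, adjusted p = 0.0541) or GW4064 replicate 1 (0.22, adjusted p = 0.0568), and Lamp2 without the same 2 arrays (-0.18, adjusted p = 0.051, and -0.18, adjusted p = 0.0507). Ulk1 was lost without DMSO replicate 2 or 4 (-0.20 each, adjusted p = 0.0521 and 0.0514). The call of Ctsl was lost without DMSO replicate 1 or 3 or GW4064 replicate 1 or 2 (-0.16 each, adjusted p of 0.0576 to 0.0686). Sqstm1 was lost without DMSO replicate 2 or 4 or GW4064 replicate 1, 2 or 3 (0.20 to 0.24, highest adjusted p = 0.0684). Naglu and Tfe3 kept the call only without DMSO replicate 3 or GW4064 replicate 3, and Gaa only without DMSO replicate 3 or GW4064 replicate 4. In the other cases Naglu was 0.18 to 0.21, Tfe3 0.16 to 0.21 and Gaa 0.12 to 0.14, with adjusted p of at most 0.0842, 0.0883 and 0.113. Without DMSO replicate 1, Psap (0.19, adjusted p = 0.0407) and Ctsh (0.20, adjusted p = 0.0388) passed.

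**Figure D4:**
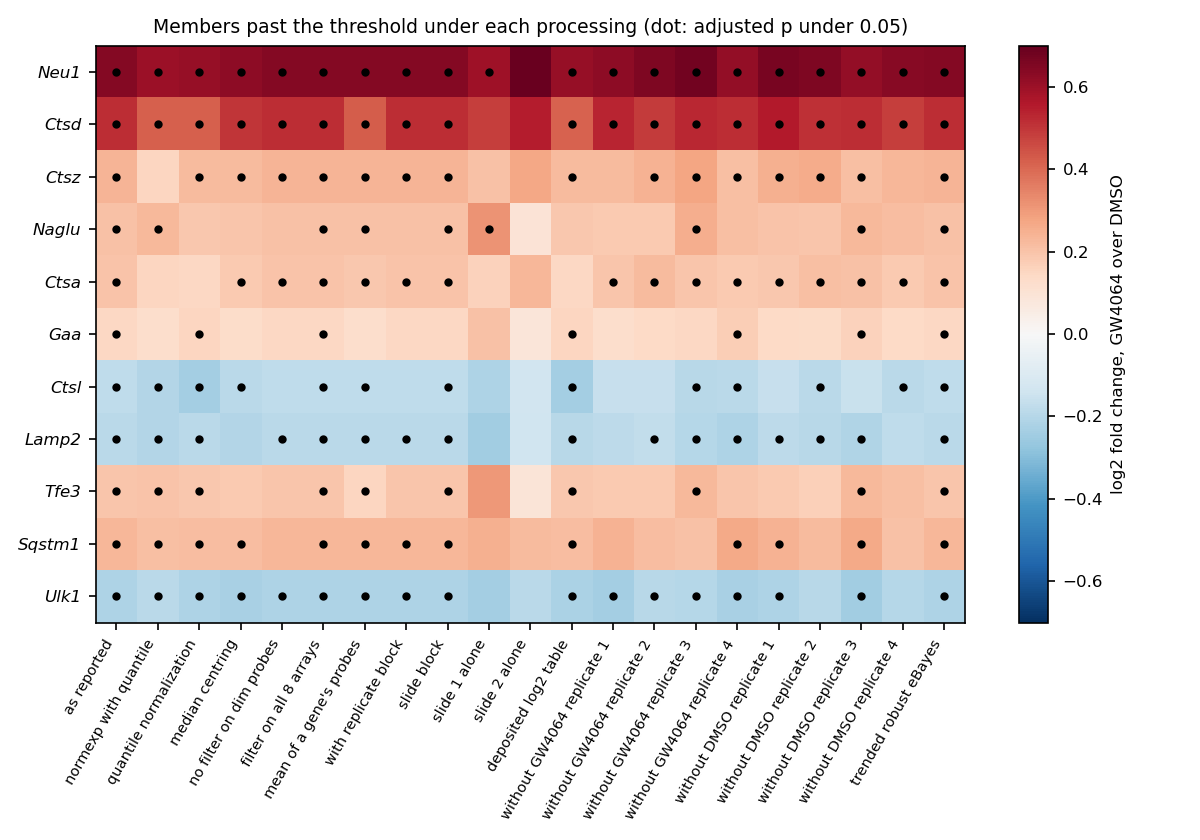
Log2 fold change of GW4064 over DMSO (colour) for the 11 called genes under the reported processing and 20 alternatives, with a dot where the adjusted p was under 0.05. All 220 alternative values keep the sign of the reported one, and 145 of them pass. Where arrays were left out or slides split, groups that did not overlap fixed this sign. Neu1 and Ctsd have the fullest rows.

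Genes outside the 31 were read from 9 further lists of the lysosome and autophagy pathway, with 175 genes tested. Of these 27 rose and 14 fell (23.4% called, against 20.8% of all genes), with a median log2 fold change of 0.03.

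Of 37 other lysosomal hydrolases and activators 8 rose and 4 fell (32.4% called, against 20.8% of all genes tested). Arsa, arylsulfatase A, read 2.23, 2.24, 2.26 and 2.23 with GW4064, against 2.52, 2.48, 2.46 and 2.47 with DMSO, with every GW4064 array lower (log2 fold change -0.24 ± 0.03). The hyaluronidase Hyal1 fell by 0.32 ± 0.05 on the log2 scale, and the cysteine protease gene Ctsf rose by 0.22 ± 0.04. Of 21 membrane proteins and transporters 6 rose and 1 fell (33.3% called). One of the 6, Mcoln2, was well above background on 4 GW4064 arrays but on 1 DMSO array, so it was kept through the group where it was higher. The cystine exporter Ctns rose by 0.22 ± 0.04 and the nucleoside transporter Slc29a3 by 0.31 ± 0.06, while Laptm4b, a membrane protein of late endosomes and lysosomes, fell by 0.23 ± 0.03 on the log2 scale.

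The vacuolar proton pump acidifies lysosomes. Of its 19 tested genes 4 rose and 1 fell (26.3% called, against 20.8% of all genes tested). Atp6v1b2, the widely expressed B subunit, read 0.72, 0.72, 0.73 and 0.80 with GW4064, against 0.39, 0.27, 0.37 and 0.39 with DMSO (log2 fold change 0.39 ± 0.04). Atp6v0e2 rose by 0.25 ± 0.03. Atp6v0d2, a d subunit of narrower expression known from osteoclasts and kidney, read -4.34, -4.53, -4.26 and -4.48 with GW4064, against -3.77, -3.69, -3.72 and -3.57 with DMSO (log2 fold change -0.71 ± 0.07). For Atp6v1b2 and Atp6v0d2 the groups did not overlap.

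In delivery to the lysosome 2 of 20 rose and 2 fell. Vps41 and Vps33a, subunits of the tethering complex HOPS, had log2 fold changes of 0.15 ± 0.04 and 0.18 ± 0.05, and the sorting receptor Sort1 had -0.21 ± 0.05. Of 19 genes of autophagy initiation and membrane growth 2 rose and 0 fell, namely Wdr45 (0.16 ± 0.04), a relative of Wipi1, and Ambra1 (0.11 ± 0.03), a partner of Becn1. Among 10 conjugation genes 1 fell, the E2-like enzyme gene Atg10 (-0.28 ± 0.05), and 0 rose. Of 14 receptors 2 rose, Calcoco1 (0.28 ± 0.05) and Tax1bp1 (0.13 ± 0.04), and the mitophagy receptor Bnip3l fell (-0.34 ± 0.06). Of 5 autophagosome fusion genes 0 passed in limma and 1 had an unadjusted p under 0.05. The shares called were 20% for delivery, 10.5% for initiation, 10% for conjugation and 21.4% for receptors. Over all genes tested the share was 20.8%.

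Of 30 relatives of TFEB and regulators of mTORC1 3 rose and 4 fell (23.3% called, against 20.8% of all genes tested). Mlst8, an mTOR complex subunit, rose (0.16 ± 0.03), and Lamtor3, of the Ragulator scaffold on the lysosome, fell (-0.16 ± 0.04). Ddit4 had the largest change of the list (-0.74 ± 0.21), and Mitf, a relative of TFEB, also fell (-0.26 ± 0.06). Prkaa2, a catalytic subunit of the energy sensor AMPK, read 0.99, 1.08, 0.94 and 0.95 with GW4064, against 1.32, 1.25, 1.15 and 1.27 with DMSO (log2 fold change -0.26 ± 0.05).

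**Figure D5:**
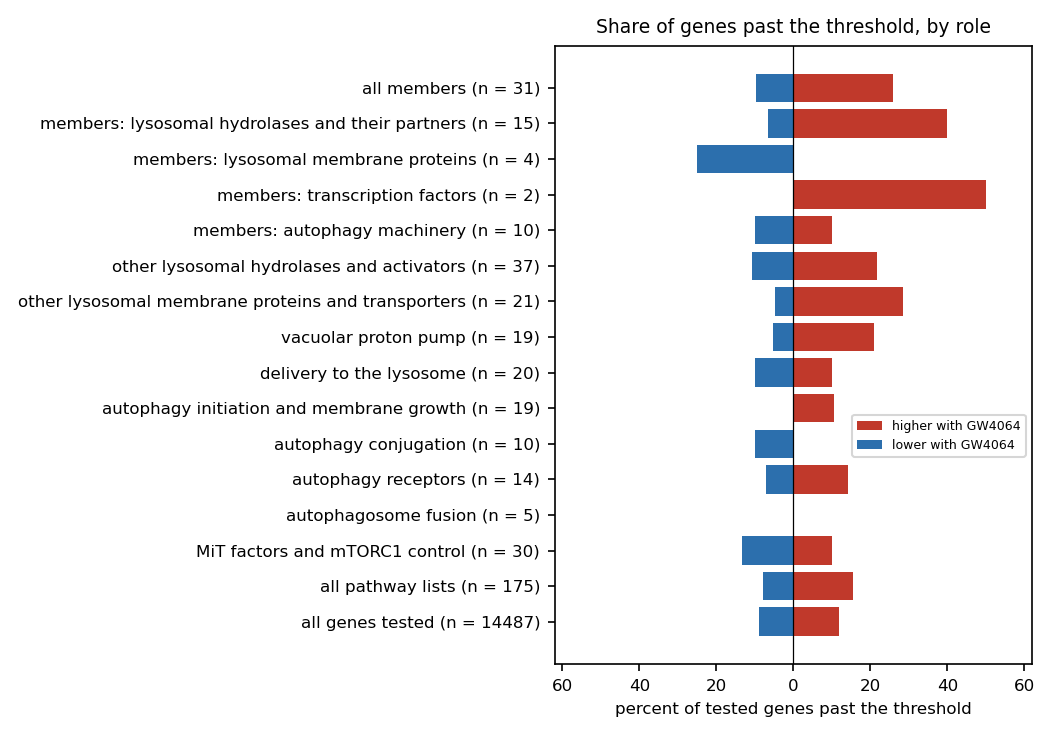
Percent of the tested genes of each list with an adjusted p under 0.05, higher with GW4064 to the right and lower to the left of 0, with the number tested in brackets. The hydrolases of the 31 have 6 of 15 higher, and all genes tested have 11.8% higher and 8.95% lower.

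Markers of other cells moved in the same cultures. Of 15 tested macrophage and leukocyte markers, cells rich in lysosomes, 6 rose and 0 fell, with Csf1r, the macrophage growth factor receptor, up by 0.75 ± 0.05 on the log2 scale. Their summed level was 22.8 to 25.3 times the 75th percentile with GW4064, against 17.9 to 19.2 with DMSO, and 0 of the 15 were below background on all arrays. Cd14, Csf1r and Itgam, the brightest 3 probes, made up 89.4% to 93.0% of this sum, and Cd14 and Csf1r rose while Itgam did not pass. Of the 15 markers 14 had log2 fold changes above 0. Ptprc went the other way (-0.90 ± 0.54) and did not pass, though every GW4064 array lay below every DMSO array. DMSO replicate 4 read -1.53 for Ptprc, against -4.10 to -4.01 on the other DMSO arrays. Of 9 endothelial markers 4 rose (Esam by 0.99 ± 0.06), with sums of 6.28 to 7.07 with GW4064, against 5.48 to 6.39 with DMSO, and Tek was not well above background on any array. Of 9 fibroblast and pericyte markers 3 rose (Tagln by 0.53 ± 0.10), with sums of 79.0 to 95.7 with GW4064, against 57.7 to 73.8 with DMSO, and Lum was not well above background on any array. Of 7 markers of other nephron segments 0 rose and 2 fell (Umod by 0.71 ± 0.16, and Slc12a3, well above background on 2 GW4064 and 4 DMSO arrays), with sums of 7.51 to 9.05 with GW4064, against 7.16 to 9.04 with DMSO, and Calb1 and Atp6v1b1 were not well above background on any array. The 3 brightest probes made up 85.1% to 96.3% of the endothelial, fibroblast and nephron sums, so these sums say little of the dimmer markers. Shares called were 40% for macrophage, 44.4% for endothelial, 33.3% for fibroblast and 28.6% for nephron markers, against 20.8% of all genes tested. The proximal tubule sum was 176.9 to 199.1 with GW4064, against 132.2 to 167.0 with DMSO. Kap, Pdzk1 and Ass1, the brightest 3 of its 17 genes, made up 55.5% to 68.7% of this sum. The part of these shifts in the changes of the lysosome and autophagy genes was not tested.

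Promoter windows of 27 of the 31 genes were matched by symbol in the RefSeq table (GRCm38.p6), each running from 250 bases before the start to 50 after it. Motifs were searched on both strands. The E-box CACGTG was present for 11 of 27 genes (40.7%), against 8.09% of the 27025 genes in the table and 11.2% of the 11521 of them tested on the arrays. It was present for 4 of 8 genes that rose (Ctsa, Ctsd, Naglu and Gaa), 1 of 3 that fell (Ctsl) and 6 of 16 that did not pass. By role it was found in 7 of 13 hydrolases and partners, 2 of 4 membrane proteins, 0 of 2 transcription factors and 2 of 8 autophagy genes. These are matches of letters, not binding sites.

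TCACGTGA contains the E-box and is the middle of the CLEAR element (TCACGTGA with G before and C after it). It was present for 4 of 27 genes (14.8%), against 1.12% of all genes in the table and 1.95% of those tested. The whole CLEAR element was found for 0 of 27 and for 0.37% of all genes. The upstream matches of the 4 genes are printed below, with 20 bases or fewer on each side and TCACGTGA in capitals, because 2 of these genes rose (Ctsa and Ctsd) and 2 did not pass (Mcoln1 and Gla). They lie at chr2:164833740-164833772 (plus strand, Ctsa), chr7:142387899-142387946 (minus, Ctsd), chr8:3500453-3500500 (plus, Mcoln1) and chrX:134601173-134601253 (minus, Gla). Ctsa held a further match that begins 5 bases into the transcript.
Ctsa: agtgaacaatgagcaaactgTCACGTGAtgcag
Ctsd: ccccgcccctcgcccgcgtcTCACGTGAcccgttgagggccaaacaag
Mcoln1: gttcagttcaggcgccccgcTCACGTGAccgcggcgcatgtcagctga
Gla: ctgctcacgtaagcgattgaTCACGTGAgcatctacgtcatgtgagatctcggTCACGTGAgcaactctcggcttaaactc

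The FXR inverted repeat, AGGTCA followed after 1 base by its reverse complement, was found for 0 of 27 genes, and for 3 of all 27025. The core of the antioxidant response element, TGACNNNGC, was found for 8 of 27 genes (29.6%). The share was 14.0% of all genes in the table and 16.7% of those tested on the arrays. The 8 genes were Ctsd, Ctsz and Naglu, which rose, and Scarb2, Tpp1, Map1lc3b, Hexa and Psap, which did not pass. They made up 3 of 8 genes that rose, 0 of 3 that fell and 5 of 16 that did not pass. Sqstm1 had no match in this window.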

How the data were processed

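Total RNA was labelled with Cy3 and hybridised to 8 one-colour Agilent arrays, 4 per group. The deposited spot intensity (gProcessedSignal) had, per the file headers, been background-subtracted by Agilent's Feature Extraction (10.7.3.1). The notes of the submitters on processing list that software (10.7) and limma. A deposited table of log2 values, whose columns the authors had brought to a common distribution with centring and scale unstated (medians 6.60), served as an alternative. Per array, 44397 spots included 1377 controls, which were left out with 98 to 174 marked spots. Log2 signals were averaged per probe, and the array's 75th percentile was subtracted. Probes well above background on at least 4 of 8 arrays were kept (24735). Accessions were matched to the GRCm38.p6 gene table (69.1% of probes named), with the brightest probe per gene. The test was limma's (3.58.1, R 4.3.3: lmFit and eBayes, Benjamini-Hochberg over all genes). The fit was tested on simulated data. The genes and lists were chosen with earlier results of these data known. Named genes were all 31, up to 3 of each pathway list with the smallest p, 1 of each marker list and the treatment checks. Some further genes were named because they were dim, bright, or moved against or beyond those. Alternatives covered background correction, normalization, filter, probe choice, blocks, slides, the deposited table, eBayes settings and each array left out. The number of arrays limits the precision.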

Additional observations from a re-analysis of the deposited data

Results flagged for a closer look

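Of 76 groups of 4 arrays examined (the 31 genes, their classes and array brightness), 4 (5.26%) had 1 array apart from the other 3, and chance gives about 1 in 20. Gabarapl1 was 6.34 on GW4064 replicate 4, against 5.84 to 5.90 on the other GW4064 arrays. Map1lc3b was 3.37 on DMSO replicate 1, against 3.51 to 3.53 on the others. Wipi1 was 0.51 on DMSO replicate 2, against 0.46 to 0.47, and Uvrag was 2.00 on DMSO replicate 4, against 1.87 to 1.89. All 4 are autophagy genes that did not pass the threshold.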

How the results depend on the processing

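No call reversed under the 20 alternatives. The 11 called genes kept their direction in all 220 values and passed in 145, and the 20 others passed in 10 of 400. As the groups of all 11 did not overlap, leaving out an array or fitting 1 slide could not reverse their direction. Filter, block and eBayes settings reused the same values, so the direction was fixed there too. Values as reported were 3008 genes called, 8 of the 31 higher and 3 lower (7 hydrolases, 1 membrane protein, 1 transcription factor and 2 autophagy genes), and 27 pathway genes higher and 14 lower. Tests on 1 slide have 2 arrays per group: slide 1 alone called 966 genes, 2 of the 31 higher and 0 lower (2 hydrolases, 0 of each other class), and 1 pathway gene higher and 1 lower. Slide 2 alone called 220 genes, 0 of the 31 in any class and 0 pathway genes. Median centring called 2294 genes and left 5 of the 31 higher, 0 membrane proteins, 0 transcription factors and 12 pathway genes higher. Without a filter on dim probes 2167 of 20632 genes passed. There 4 of the 31 were higher (4 hydrolases, 0 transcription factors, 1 autophagy gene), with 14 pathway genes higher and 9 lower. Normexp and quantile normalization together called 2536 genes, and gave 4 hydrolases, 4 autophagy genes and 17 pathway genes higher. Same-numbered samples correlated at -0.131, -0.0291, 0.191 and -0.0219 in their deviations from group means, and 1 of 4 GW4064 arrays matched its own number best. Correlations this weak cannot settle whether the numbers pair the samples, and the reported fit took the samples as unpaired. With replicate number as a block 2324 genes passed, 5 of the 31 higher (4 hydrolases, 0 transcription factors), and 12 pathway genes higher. Leaving out each array gave 2078 to 2825 genes, 3 to 8 of the 31 higher and 1 to 4 lower (3 to 6 hydrolases, 0 to 1 membrane proteins, 0 to 2 transcription factors, 0 to 3 autophagy genes), with 13 to 23 pathway genes higher and 7 to 14 lower. The combination of normexp and quantile normalization ended the calls of Ctsa, Ctsz and Gaa, median centring those of Gaa, Naglu, Lamp2 and Tfe3, and the lack of a filter those of Ctsl, Gaa, Naglu, Tfe3 and Sqstm1. Quantile normalization or the deposited table ended the calls of Ctsa (0.14 each, adjusted p = 0.0583 and 0.0629) and Naglu (0.19 each, adjusted p = 0.0501 and 0.0503). Slide and scan time split the arrays alike, so scan time was not run separately. The cause of these shifts was not tested.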
